A study of Mus musculus with 12 samples.

Results

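Glutathione S-transferases were followed across the libraries of a study on the transcription factor EOMES in mouse CD4+ T cells. The 7 genes are Gstt1, Gstt2, Gstm1, Gstm5, Gstp1, Gsto1 and Gstk1, taken by symbol from the 43626 genes of the count matrix, and all 7 were found. The group was chosen by the counts of Gstt1 and Gstm5 in the Het libraries, which are low in GFP-positive cells. The members' values in that comparison are therefore given as a description with no test. Of the 7 members, 6 had enough reads to be tested. Gstk1, the mitochondrial and peroxisomal kappa-class enzyme, did not pass the filter on low counts. With 7 counts over the 3 Het GFP-positive libraries, under the minimum of 10 per group, it was too low to read there.

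Glutathione S-transferases join the tripeptide glutathione to reactive electrophiles, which makes them more soluble and ready for export. The cytosolic enzymes form classes named by Greek letters, here theta (Gstt1, Gstt2), mu (Gstm1, Gstm5), pi (Gstp1) and omega (Gsto1). Many of these genes respond to the oxidative stress factor NRF2, which binds the antioxidant response element. T cells need glutathione for their growth after activation.

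The donors carried a floxed Eomes allele and a GFP reporter allele, either without cre (Het) or with Lck-cre (KO), a recombinase expressed in the T cell lineage, so the Het cells too carry the reporter allele. Naive CD4+ T cells (CD45RBhi CD25-) were sorted from donor spleens and given to adult male Rag2-/- mice, and after 3 weeks the splenic CD4+ cells were sorted into GFP-positive and GFP-negative cells. There were 6 recipients, 3 per genotype, and each gave a library of both sorts, so that each of the 4 groups holds 3 libraries. Libraries with the same number within a genotype come from the same recipient. Rag2-/- hosts lack T and B cells of their own and keep myeloid, NK and erythroid cells. The first comparison named by the design asks which genes mark Eomes-expressing cells, and the second, Het GFP-positive against KO GFP-positive, which genes depend on Eomes.

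Total counts of the GFP-negative libraries lay between 11492908 and 15026613 (Het) and between 12067137 and 18167236 (KO). Those of the GFP-positive libraries lay between 4364155 and 8400168 (Het) and between 2116894 and 8608902 (KO). The GFP-positive libraries came from 18000 to 117000 cells and the GFP-negative ones from 645000 to 2100000. Levels are counts per 1000000 of the library (CPM), scaled by TMM, with the SD over 3 libraries. Eomes was read at 109 ± 17.4 CPM in Het GFP-positive, 41.3 ± 8.44 in KO GFP-positive, 5.01 ± 3.70 in Het GFP-negative and 2.95 ± 1.54 in KO GFP-negative cells. The labels do not give the floxed exons, so Eomes reads outside them do not check the deletion. All 8 CD4 T cell markers had counts in every group, with sums of 1834 to 3071 CPM. All 12 myeloid markers had counts in every group as well, and in 6 of 6 recipients their sum was higher in the cells with GFP. The myeloid sums of Het recipients ran from 218 to 1716 CPM without GFP and from 547 to 4012 CPM with it. In KO recipients they ran from 50.1 to 682 and from 343 to 1416 CPM. Erythroid, granulocyte and mast cell, and NK cell marker sums were also higher in GFP-positive cells of 6 of 6 recipients. The CD4 T cell sum was higher there in 0 of 6. In the Het GFP-positive library of recipient 2, the NK cell sum of 34.7 CPM came from 2 of the 4 NK cell markers.

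The members lie on 4 chromosomes (GRCm38, positions as in the deposited count files). Gstt1 (ENSMUSG00000001663.6, chromosome 10, 75783813 to 75798584) and Gstt2 (ENSMUSG00000033318.6, chromosome 10, 75831845 to 75834881) are neighbours on the minus strand. Gstm5 (ENSMUSG00000004032.6, chromosome 3, 107895821 to 107898686, plus strand) and Gstm1 (ENSMUSG00000058135.8, chromosome 3, 108012255 to 108017973, minus strand) belong to the mu cluster. Gstp1 (ENSMUSG00000060803.5, 4035407 to 4037921, minus strand) and Gsto1 (ENSMUSG00000025068.7, 47854970 to 47864790, plus strand) are on chromosome 19, and Gstk1 (ENSMUSG00000029864.5, chromosome 6, 42245935 to 42250441) is on the plus strand. Each count covers all annotated exons of a gene, including both UTRs.

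The stretches before the RefSeq starts of Gstt1 and Gstm5, the members the choice rests on, are shown because these genes share no chromosome and were low in the same libraries. Both are from RefSeq's GRCm38.p6 windows, 5′ to 3′ on the gene's strand, and hold no counted exon base of their own gene. The Gstt1 stretch, chr10:75797732-75797981 on the minus strand, lies before an internal start, 853 bases inside the outermost start of the count files, and so in an intron of the longest transcript. The Gstm5 stretch is chr3:107895604-107895820 on the plus strand, within the span of the antisense gene 4933431E20Rik (107888850 to 107896213). Capitals mark a match to the core of the antioxidant response element, TGACNNNGC.
Gstt1: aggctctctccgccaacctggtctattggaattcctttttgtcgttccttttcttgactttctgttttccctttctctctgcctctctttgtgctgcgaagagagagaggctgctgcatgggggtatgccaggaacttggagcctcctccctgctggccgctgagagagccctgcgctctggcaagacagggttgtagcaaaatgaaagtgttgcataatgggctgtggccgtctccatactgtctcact
Gstm5: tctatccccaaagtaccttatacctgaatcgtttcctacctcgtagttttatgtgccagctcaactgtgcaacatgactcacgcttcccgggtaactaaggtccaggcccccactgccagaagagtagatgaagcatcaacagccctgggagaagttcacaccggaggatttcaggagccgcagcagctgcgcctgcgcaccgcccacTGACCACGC

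Both strands of the windows from 250 bases before to 50 bases after each RefSeq start were searched for that core and for the T-box motif TCACACCT, the kind of site that EOMES binds. The Gstm5 match begins 42 bases before the start, and no other window of a member held either motif. The Gstt1 window lies at its internal start, so the stretch before the outermost Gstt1 start was not searched. The core was found in 12.5% and the T-box motif in 1.27% of 27025 promoter windows of the same length. The motifs share no overlap here, and a match is a description of the letters only. Windows were found for 6 of the 7 members, the exception being Gstt2. The Gstt1 and Gstm5 stretches held 52.8% and 55.3% G and C.

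Per kilobase of exon, the GFP-negative cells of Het recipients held most Gstp1, at 25.1 ± 6.66 CPM per kilobase, followed by Gstt2 at 13.2 ± 0.895. Gstt1 came next at 7.82 ± 0.619, then Gsto1 at 5.69 ± 3.08 and Gstm5 at 3.40 ± 1.01. Gstt1 and Gsto1 overlapped within their SDs, as did Gsto1 and Gstm5. Gstm1 at 0.843 ± 1.25 and Gstk1 at 0.423 ± 0.269 CPM per kilobase were the lowest and also overlapped. In KO GFP-negative cells the order differed in that Gsto1, at 10.8 ± 4.91, stood above Gstt1, at 6.61 ± 0.986, and Gstk1, at 0.998 ± 0.363, above Gstm1, at 0.288 ± 0.213.

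In the GFP-positive cells of Het recipients Gstt1 stood in the fifth place, at 1.30 ± 0.830 CPM per kilobase, below Gstp1 (16.5 ± 5.17), Gsto1 (12.3 ± 8.78), Gstt2 (7.85 ± 0.884) and Gstm1 (2.78 ± 2.91). In KO GFP-positive cells it stood in the fourth, at 3.76 ± 0.925, after Gstp1 (14.2 ± 6.63), Gsto1 (11.4 ± 3.08) and Gstt2 (10.4 ± 1.80). Gstm5 was at 0.657 ± 0.434 and 0.743 ± 0.182 CPM per kilobase in the GFP-positive cells of the respective genotypes. Each gene's own differences between groups, on the CPM scale, follow by class.

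**Figure D1:**
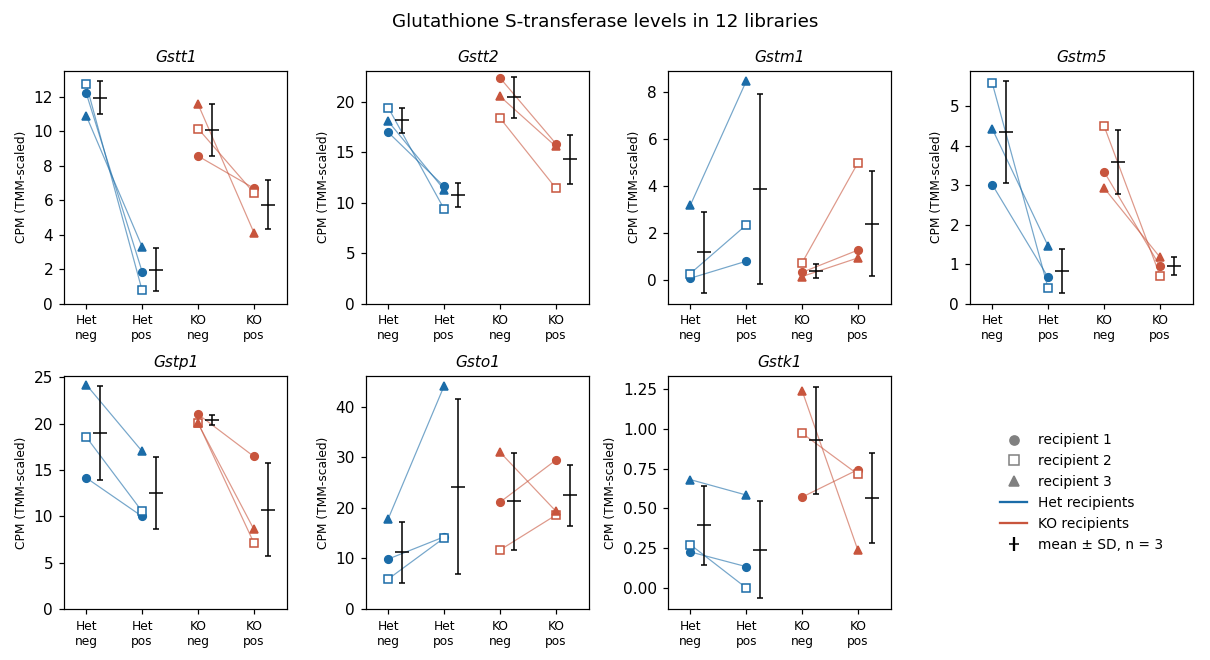
Level of the 7 members in each of the 12 libraries (y axis, TMM-scaled CPM, a separate linear scale per gene) by group (x axis), with lines joining the sorts of a recipient and black bars for the mean ± SD of 3 libraries. Gstt1 is at 0.781 to 3.31 CPM in Het GFP-positive and 4.12 to 6.69 in KO GFP-positive cells, both below every GFP-negative library.

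Gstt1 encodes the theta-class enzyme known for acting on small halogenated compounds. It was read at 12.2, 12.7 and 10.9 CPM in the GFP-negative and at 1.87, 0.781 and 3.31 CPM in the GFP-positive cells of Het recipients 1, 2 and 3. The low values rest on 14, 2 and 34 counts, against 162, 187 and 192. In KO recipients the GFP-negative cells had 8.56, 10.2 and 11.6 CPM and the GFP-positive cells 6.69, 6.42 and 4.12 CPM (63, 9 and 35 counts). The 3 levels did not overlap: every Het GFP-positive library lay below every KO GFP-positive one, and these below all 6 GFP-negative libraries. In bulk libraries, fewer cells that express a gene and less RNA per cell cannot be told apart.

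In Het recipients, GFP-positive cells had 5.38-fold less Gstt1 than GFP-negative cells (log2 fold change -2.43, SE 0.36), which is the difference the gene was chosen for. In KO recipients, which the choice did not use, the log2 fold change was -0.84 (SE 0.34), lower in 3 of 3 recipients. It did not pass edgeR's quasi-likelihood test (adjusted p = 0.261), nor with the recipient as a block (log2 fold change -0.85, edgeR adjusted p = 0.0953). With the block and without KO recipient 1 it was -1.18 (edgeR adjusted p = 0.0450). Within recipients the log2 difference was -2.68, -3.95 and -1.71 in Het and -0.35, -0.66 and -1.48 in KO mice. Every Het difference was thus larger in size than every KO difference. Whether the sizes differ by genotype was not tested, because the Het libraries chose the gene.

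Gstt2, the other theta-class member, showed a smaller difference in the same direction. Het GFP-negative cells had 17.0, 19.4 and 18.0 CPM and Het GFP-positive cells 11.6, 9.37 and 11.3 CPM. KO GFP-negative cells had 22.3, 18.4 and 20.5 CPM and KO GFP-positive cells 15.8, 11.4 and 15.6 CPM. Neither pair of sorts overlapped, which held for 27.3% of all genes in Het and 20.3% in KO recipients. The log2 fold change was -0.74 (SE 0.18) in Het recipients. In KO recipients it was -0.48 (SE 0.18, edgeR adjusted p = 0.249), and -0.50 with the recipient block (edgeR adjusted p = 0.0705). Within recipients Gstt2 was lower in GFP-positive cells by a log2 difference of -0.55, -1.05 and -0.67 in Het and -0.50, -0.68 and -0.40 in KO mice, a narrower spread than that of Gstt1.

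The genes starting within 50 kb of Gstt1 were examined beside it. Gstt3, a further theta-class gene, was at 4.04 ± 0.714 CPM in Het GFP-negative and 2.15 ± 0.605 in Het GFP-positive cells (log2 fold change -0.91, edgeR adjusted p = 0.215). It was at 3.44 ± 0.156 and 3.67 ± 2.39 CPM in the KO sorts (log2 fold change -0.11, edgeR adjusted p = 0.905), where recipient 2 alone, with 9 counts, was above its GFP-negative library. Ddt, which encodes D-dopachrome tautomerase, a relative of the cytokine MIF, was at 10.6 ± 1.39 and 4.999 ± 0.560 CPM in the Het sorts. In the KO sorts Ddt was at 12.1 ± 1.83 and 6.31 ± 2.97 CPM. Its log2 fold changes of -1.07 and -0.84 were not called without the block (edgeR adjusted p = 0.0696 and 0.230). With the recipient block they passed, at -1.05 and -0.92 (edgeR adjusted p = 0.0122 and 0.0293).

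Cabin1, a calcineurin-binding repressor at the other side of Ddt, had 182 ± 39.0 and 208 ± 50.6 CPM in the Het sorts and 167 ± 12.6 and 229 ± 52.1 CPM in the KO sorts. Its log2 fold changes of 0.20 and 0.45 were not called (edgeR adjusted p = 0.626 and 0.312). Gstt4 had 4 counts over all libraries and Gm20441 had 0, so neither could be tested. Of the 4 neighbours tested, Gstt2 and Ddt thus had negative log2 fold changes in both genotypes, and Cabin1 had positive ones. Gstt3 had negative ones too, but only -0.11 in KO recipients, with means of 3.44 (GFP-negative) and 3.67 CPM (GFP-positive). Negative log2 fold changes were found for 6790 of all 13238 tested genes in Het and for 6833 in KO recipients.

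**Figure D2:**
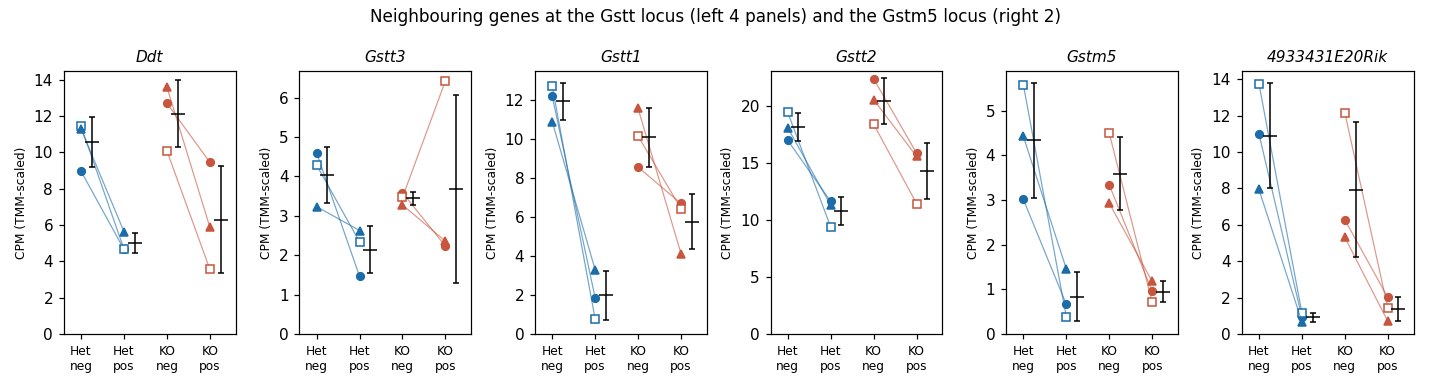
Level (y axis, TMM-scaled CPM, linear, a separate scale per gene) of 4 genes at the Gstt locus and 2 at the Gstm5 locus in the 12 libraries by group (x axis), with lines joining the sorts of a recipient and black bars for the mean ± SD of 3 libraries. Blue marks Het and red KO recipients, and circles, squares and triangles recipients 1, 2 and 3. Gstm5 and 4933431E20Rik are lower in GFP-positive cells of all 6 recipients, while Gstt3 is higher in KO recipient 2.

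Gstm5, a mu-class enzyme, was low in GFP-positive cells of both genotypes. Het GFP-negative cells had 3.01, 5.58 and 4.43 CPM (40, 82 and 78 counts) and Het GFP-positive cells 0.667, 0.390 and 1.46 CPM (5, 1 and 15 counts). KO GFP-negative cells had 3.34, 4.50 and 2.93 CPM (41, 74 and 59 counts) and KO GFP-positive cells 0.956, 0.714 and 1.18 CPM (9, 1 and 10 counts). The sorts did not overlap in either genotype, and the GFP-positive libraries of the 2 genotypes overlapped.

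In Het recipients the log2 fold change of Gstm5 was -2.19 (SE 0.46), 4.58-fold lower, which is again the difference that led to its choice. In KO recipients it was -1.81 (SE 0.47), 3.51-fold lower and lower in 3 of 3 recipients. Without the block this was not called (edgeR adjusted p = 0.172). With the recipient block Gstm5 fell, at a log2 fold change of -1.69 (SE 0.43, edgeR adjusted p = 0.0244). Leaving out a KO recipient from the blocked fit ended the call each time (edgeR adjusted p = 0.0541 to 0.118). DESeq2 without the block also called it (log2 fold change -1.80, adjusted p = 0.0394), and the unblocked alternatives ranged from 0.0394 to 0.539. The authors' deposited table of the KO comparison lists Gstm5 at -1.23 on the log2 scale (adjusted p = 0.0384).

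The antisense transcript 4933431E20Rik starts 392 bases from the Gstm5 start and runs the other way. It had 11.002, 13.8 and 7.95 CPM in Het GFP-negative and 0.934, 1.17 and 0.681 CPM in Het GFP-positive cells. In KO recipients it had 6.28, 12.2 and 5.31 CPM in GFP-negative and 2.02, 1.43 and 0.707 CPM in GFP-positive cells. It fell in Het recipients (log2 fold change -3.63, SE 0.49, edgeR adjusted p = 0.00332). In KO recipients its log2 fold change was -2.51 (edgeR adjusted p = 0.0824), and with the recipient block it fell by 2.29 on the log2 scale (edgeR adjusted p = 0.00228). Its exons cover 178 of the 1278 exon bases of Gstm5, or 13.9%. The strand setting of the counting is not given in the sources used here, so reads of the pair in that stretch may not be told apart. Of 169 genes whose exons are wholly covered by exons on the opposite strand, 102 had counts.

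On the other side, Eps8l3, of the EPS8 adaptor family, held 58 counts over all libraries and was not tested. It averaged 0.862 CPM in Het GFP-negative cells and was at 0 in the 3 Het GFP-positive libraries, and it averaged 0.299 and 0.0708 CPM in the KO sorts. The mu-class genes Gstm7 and Gstm6 had 3 and 0 counts in all, and Gm12489 had 0. Gstm5 was thus the only mu-class gene with a testable level within 50 kb.

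Gstm1, the mu-class enzyme that also binds and restrains the stress kinase ASK1, moved in the opposite direction. Het GFP-negative cells had 0.0754, 0.272 and 3.18 CPM (1, 4 and 56 counts) and Het GFP-positive cells 0.800, 2.34 and 8.47 CPM (6, 6 and 87 counts). KO GFP-negative cells had 0.326, 0.730 and 0.149 CPM (4, 12 and 3 counts) and KO GFP-positive cells 1.28, 4.997 and 0.943 CPM (12, 7 and 8 counts). The Het sorts overlapped because recipient 3 was high in both, and the KO sorts did not overlap. Gstm1 was higher in the GFP-positive library of 6 of 6 recipients, by a log2 difference of 2.81, 2.91 and 1.40 in Het and 1.83, 2.70 and 2.35 in KO mice.

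In KO recipients the log2 fold change of Gstm1 was 2.18 (SE 1.29), not called without the block (edgeR adjusted p = 0.370). With the recipient block Gstm1 rose, at 2.45 (SE 0.54, edgeR adjusted p = 0.0145). The blocked adjusted p from edgeR ran from 0.0139 to 0.110 when each KO recipient was left out, and the call was lost without recipient 2 and without recipient 3. The myeloid marker sum moved with Gstm1: it too was higher in GFP-positive cells of 6 of 6 recipients, and the Het GFP-positive library of recipient 3 was the highest of the 12 in both. Of 12 myeloid markers, 12 had counts in every group. The part of these cells in the Gstm1 level was not tested. Of its 50-base words, 18.9% also occur in other genes, 14.1% in Gstm2-ps1, so its counts are uncertain.

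**Figure D3:**
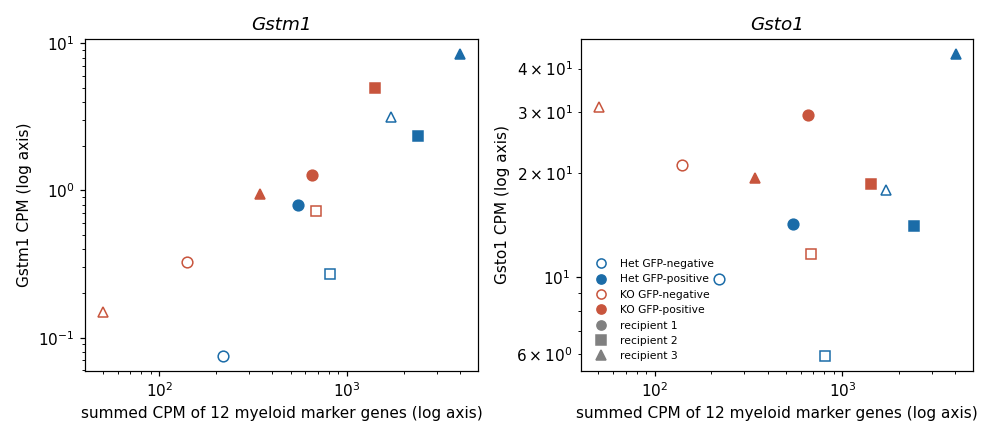
Levels of Gstm1 (left) and Gsto1 (right) in the 12 libraries (y axes, TMM-scaled CPM, log axes) against the summed CPM of 12 myeloid marker genes (x axes, log axes), with filled symbols for GFP-positive and open symbols for GFP-negative libraries. The library with 4012 CPM of myeloid markers has the highest Gstm1 and Gsto1, and the one with 50.1 CPM has the second highest Gsto1 and a Gstm1 of 0.149 CPM.

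Gstp1, the pi-class enzyme, has the highest mean per kilobase of the 7 members in all 4 groups. In GFP-positive cells it overlaps within the SDs with Gsto1 in both genotypes, and with Gstt2 in KO cells. Het GFP-negative cells had 14.2, 18.6 and 24.2 CPM and Het GFP-positive cells 10.002, 10.5 and 17.0 CPM, which overlap. KO GFP-negative cells had 21.0, 20.1 and 20.1 CPM and KO GFP-positive cells 16.5, 7.14 and 8.60 CPM, which do not. The log2 fold change was -0.58 (SE 0.31) in Het and -0.85 (SE 0.32) in KO recipients, the latter not called without the block (edgeR adjusted p = 0.244). With the recipient block Gstp1 fell in KO recipients, at -0.91 (SE 0.22, edgeR adjusted p = 0.0218). Left-out recipients moved the blocked edgeR adjusted p from 0.00251 to 0.230, and the call was lost without recipient 2 and without recipient 3. Without the GFP-positive library of KO recipient 1 the unblocked log2 fold change was -1.33 (edgeR adjusted p = 0.0257). Gstp1 shares 33.7% of its 50-base words with its close copy Gstp2, so its counts are uncertain.

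Gsto1, the omega-class enzyme with glutathione-dependent reductase activity, differed widely among recipients. Het GFP-negative cells had 9.87, 5.92 and 17.8 CPM and Het GFP-positive cells 14.3, 14.1 and 44.1 CPM. KO GFP-negative cells had 21.1, 11.7 and 31.0 CPM and KO GFP-positive cells 29.4, 18.6 and 19.3 CPM. It was higher in GFP-positive cells of 3 of 3 Het recipients (log2 difference 0.53, 1.24 and 1.30) and of 2 of 3 KO recipients (0.48, 0.67 and -0.68). The log2 fold change was 1.14 (SE 0.51) in Het recipients, and 0.36 without the GFP-positive library of Het recipient 3, which had the highest myeloid sum. In the KO GFP-negative library with the lowest myeloid sum, 50.1 CPM, Gsto1 was at 31.0 CPM. The Pearson r of log2 CPM with the log2 myeloid sum was 0.00609 for Gsto1 and 0.845 for Gstm1 over the 12 libraries. It was -0.463 for Gstt1, -0.682 for Gstt2, -0.348 for Gstm5, -0.198 for Gstp1 and -0.294 for Gstk1. These libraries share recipients, so the values are descriptions with no test. An r over all libraries does not describe each genotype on its own. In both Het sorts, Gsto1 and the myeloid sum were highest in recipient 3. The part of myeloid cells in the level of any member was not tested. In KO recipients the log2 fold change of Gsto1 was 0.10 (edgeR adjusted p = 0.931), and with the block 0.09 with a 95% interval of -0.43 to 0.60 (edgeR adjusted p = 0.842).

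Gstk1 had 3, 4 and 12 counts in Het GFP-negative, 1, 0 and 6 in Het GFP-positive, 7, 16 and 25 in KO GFP-negative and 7, 1 and 2 in KO GFP-positive libraries. Its mean level was 0.393 ± 0.250, 0.239 ± 0.306, 0.928 ± 0.338 and 0.564 ± 0.285 CPM in these groups. With 84 counts over 12 libraries it did not pass the filter, and its differences between groups were not tested.

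**Figure D4:**
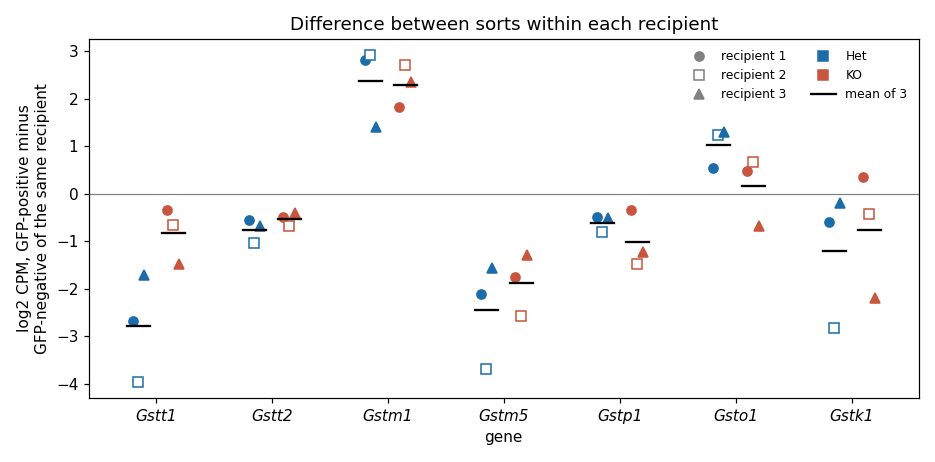
Log2 CPM of the GFP-positive minus the GFP-negative library of the same recipient (y axis, prior count 0.5) for the 7 members (x axis), with a symbol for each of the 6 recipients and a black bar for the mean of 3. Gstt1, Gstt2, Gstm5 and Gstp1 lie below 0 in 6 of 6 recipients and Gstm1 above 0 in 6 of 6.

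Side by side, the members split by direction. Gstt1, Gstt2, Gstm5 and Gstp1 were lower in GFP-positive cells in 6 of 6 recipients. For Gstt1 and Gstm5 the Het recipients led to the choice, so only their KO recipients are free of it. Lower values in 6 of 6 held for 19.9% of all tested genes, which is no measure for these chosen genes. Gstm1 was higher in 6 of 6, which held for 17.7%. In KO recipients the median log2 fold change of the 6 tested members was -0.66, beside -0.02 over all 13238 tested genes. Without the block, 0 of the 6 were called by edgeR in KO recipients, where 0.128% of all genes were called. At an unadjusted p under 0.05, 4 of the 6 passed, beside 2321 of all 13238 tested genes. DESeq2 called 1 of 6, and 390 genes in all. With the recipient block 3 of 6 were called (Gstm5 and Gstp1 lower, Gstm1 higher), against a background of 17.7%. The KO sorts did not overlap for 5 of 6, a pattern shown by 20.3% of all genes. The authors' deposited table of the Het comparison, on which the choice rests, lists Gstt1, Gstt2 and Gstm5 at -2.11, -0.70 and -1.69 on the log2 scale.

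Between genotypes, the GFP-positive cells were compared first. Of the 4 members tested in Het against KO GFP-positive cells (Gstt2, Gstm1, Gstp1 and Gsto1), edgeR called 0, beside 0.106% of all genes. At an unadjusted p under 0.05 Gstt2 alone passed, beside 824 of all 13238 tested genes, and DESeq2 called 0 of 4. Gstt1 was at a log2 fold change of -1.35 (SE 0.38), 2.54-fold lower in Het cells with no overlap. Groups without overlap were seen for 7.48% of genes in either direction, but the choice of Gstt1 used the same Het GFP-positive libraries. This share is thus no measure of how unusual Gstt1 is, and Gstt1 is described with no test. Gstt2 was at -0.43 (edgeR adjusted p = 0.792), and Gstm5, also described with no test, at -0.11 (SE 0.52). Gstm1 was at 1.12, Gstp1 at 0.17 and Gsto1 at 0.11 on the log2 scale (edgeR adjusted p = 1.00 for each). Their 95% intervals were -1.23 to 3.47, -0.47 to 0.81 and -0.90 to 1.13.

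In GFP-negative cells the genotypes were closer for Gstt1, at a log2 fold change of 0.24 (SE 0.32) with overlapping groups, and for Gstm5, at 0.27 (SE 0.39). Both are described with no test. Of the other 4 members, edgeR called 0, beside 0% of all genes, and DESeq2 called 0. At an unadjusted p under 0.05, 0 of these 4 passed, beside 695 of all 13238 tested genes. Gsto1 had the lowest log2 fold change of the tested members, -0.92 (SE 0.50, edgeR adjusted p = 0.970), with 5.92 to 17.8 CPM in Het and 11.7 to 31.0 CPM in KO cells. Gstt2 was at -0.17, Gstp1 at -0.10 and Gstm1 at 1.57 (edgeR adjusted p = 1.00 for each).

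The wider pathway was read in 64 other genes, of which 46 could be tested: 8 of 22 other glutathione transferases, 21 of 24 genes of glutathione synthesis, transport and use, and 17 of 18 genes of the NRF2 pathway. In Het recipients 2 of the 46 rose without the block (3.45% of all genes called) and 0 fell. Mgst2, a microsomal glutathione transferase that can make leukotriene C4, had 5.58, 4.02 and 6.30 CPM in Het GFP-negative and 20.4, 19.9 and 15.4 CPM in Het GFP-positive cells. It rose by a log2 fold change of 1.80 (SE 0.28, edgeR adjusted p = 0.00745). Pgd, a dehydrogenase of the pentose phosphate pathway that makes NADPH, rose from 39.8 ± 3.10 to 87.4 ± 24.1 CPM (log2 fold change 1.13, SE 0.25, edgeR adjusted p = 0.0320). Its GFP-positive levels in Het recipients 1, 2 and 3 were 60.1, 96.4 and 106 CPM, in the order of their myeloid sums (547, 2397 and 4012 CPM). The GFP-negative levels of 42.4, 36.4 and 40.7 CPM did not follow the order of the myeloid sums. The part of myeloid cells in Pgd was not tested.

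With the recipient block 9 of the 46 passed in Het recipients, 5 higher and 4 lower, beside 22.2% of all genes. Mgst1, another microsomal transferase, rose by 1.79 (edgeR adjusted p = 0.00496), with levels of 1.28 to 8.12 CPM in GFP-negative and 3.07 to 28.4 CPM in GFP-positive cells. Like the myeloid sum, it was highest in recipient 3 in both Het sorts, and the part of myeloid cells in it was not tested. Gsr, glutathione reductase, rose by 0.63 (edgeR adjusted p = 0.0460). It had 71.8, 78.5 and 137 CPM in GFP-negative and 69.6, 186 and 222 CPM in GFP-positive cells, so it was slightly lower in recipient 1 and higher in the other recipients. The GFP-positive myeloid sums of these recipients were 547, 2397 and 4012 CPM, and their part in Gsr was not tested either. Ggt1, the surface enzyme that starts the breakdown of extracellular glutathione, fell from 75.2 ± 26.4 to 32.7 ± 22.4 CPM (log2 fold change -1.35, edgeR adjusted p = 0.000837). Prdx6, a peroxidase that uses glutathione, Glo1, a glyoxalase, and Txnrd1, thioredoxin reductase, fell by 0.80, 0.67 and 0.58 on the log2 scale (edgeR adjusted p = 0.00522, 0.0303 and 0.0206).

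In KO recipients 0 of the 46 were called by edgeR without the block, beside 0.128% of all genes. At an unadjusted p under 0.05, 7 of 46 passed, beside 2321 of all 13238 tested genes. DESeq2 called 1 of 46, and 390 genes in all. With the recipient block 9 passed, 4 higher and 5 lower, beside 17.7% of all genes. Mgst2 rose by a log2 fold change of 0.97 (edgeR adjusted p = 0.0357), from 3.79 ± 0.713 to 7.74 ± 2.57 CPM. Mgst1 rose by 2.61 (edgeR adjusted p = 0.00345) and Gstcd, which carries a transferase-like domain, by 0.59 (edgeR adjusted p = 0.0462). Mgst1 had 0.326, 3.22 and 0.298 CPM in KO GFP-negative cells (4, 53 and 6 counts). In KO GFP-positive cells it had 4.25, 9.28 and 3.06 CPM (40, 13 and 26 counts). Like the myeloid sum, it was highest in recipient 2 in both KO sorts, and the part of myeloid cells in it was not tested. Ggt1 fell by 1.76 on the log2 scale (edgeR adjusted p = 0.000831), from 53.8, 39.6 and 44.8 CPM to 17.6, 7.14 and 14.5 CPM. Prdx1, Glo1 and Prdx6 fell by 1.02, 0.63 and 0.61 on the log2 scale (edgeR adjusted p = 0.0255, 0.0456 and 0.0264). Prdx1 had 172, 121 and 201 CPM in KO GFP-negative and 168, 42.8 and 65.3 CPM in KO GFP-positive cells, so recipient 1 hardly differed. Glo1 varied widely among KO recipients, with 96.8, 25.4 and 95.6 CPM in GFP-negative and 79.3, 20.0 and 43.4 CPM in GFP-positive cells. Of the 17 tested NRF2 pathway genes, 1 rose and 2 fell with the block in Het recipients, and 0 rose and 2 fell in KO recipients. Nfe2l2, which encodes NRF2, had a log2 fold change of 0.04 in Het and -0.13 in KO recipients with the block (edgeR adjusted p = 0.879 and 0.566), and was picked out after its values were seen.

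**Figure D5:**
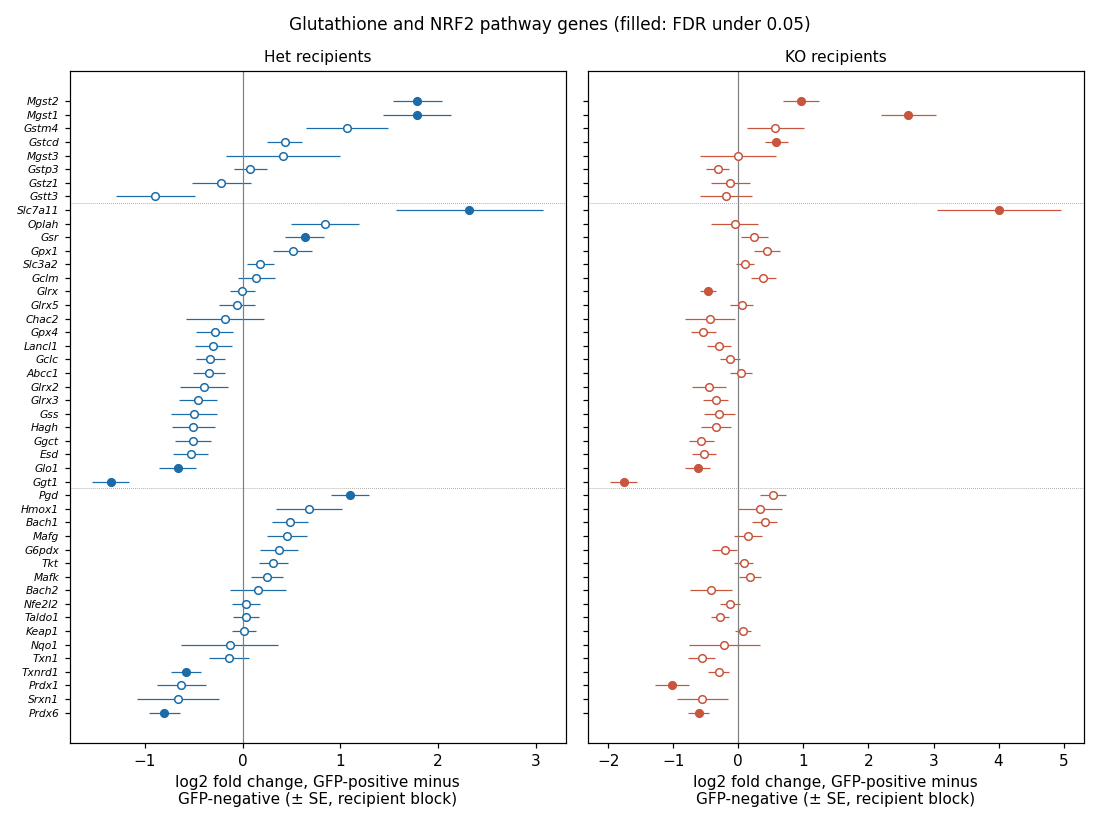
Log2 fold change of GFP-positive minus GFP-negative cells (x axes, ± SE, fit with the recipient block) for the 46 tested pathway genes (y axis) in Het (left) and KO (right) recipients, in 3 lists from top to bottom (other glutathione transferases, glutathione synthesis, transport and use, NRF2 pathway). Filled points passed an FDR of 0.05, 9 in each panel, and the x axes of the panels differ in range.

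Between genotypes edgeR called 0 of the 46 pathway genes in GFP-positive cells, beside 0.106% of all genes. At an unadjusted p under 0.05, 6 of 46 passed in these cells, beside 824 of all 13238 tested genes. Mgst2 levels in these cells did not overlap, with 15.4 to 20.4 CPM in Het and 6.16 to 10.7 CPM in KO libraries (log2 fold change 1.34, SE 0.29, edgeR adjusted p = 0.194). DESeq2 called it, alone of the 46, at 1.37 (adjusted p = 0.00487). The authors' deposited table of that comparison, labelled Het against KO, lists it at -1.07 on the log2 scale (adjusted p = 0.0334). Given the levels above, this sign is that of KO over Het, a direction the label does not state. In GFP-negative cells edgeR and DESeq2 each called 0 of 46, and edgeR called 0% of all genes. At an unadjusted p under 0.05, 1 of 46 passed there in edgeR, beside 695 of all 13238 tested genes.

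Among the 13238 tested genes, the profile over 12 libraries most like that of Gstt1 was that of Gpr34, a receptor for lysophosphatidylserine, with a Pearson r of 0.955 on log2 CPM. It averaged 9.64 and 0.348 CPM in the Het sorts and 6.41 and 1.05 in the KO sorts, GFP-negative first. The next were Eef1e1 (0.953), Gm16793 (0.951), Ckb, a creatine kinase (0.941), and Snora20 (0.938). Gpr34 was also first for Gstm5 (r = 0.952), before Slc35g1 (0.950), Ube2q2 (0.944), Il17rc, a subunit of the IL-17 receptor (0.942), and 2610021A01Rik (0.941). Gstm5 ranked 79 and Gstt2 81 for Gstt1, both at r = 0.850. The libraries share recipients and differ in depth between the sorts, so these are descriptions of likeness with no test.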

How the data were processed

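RNA was sequenced from 12 sorted splenic CD4+ T cell samples. Per the labels, RNA was extracted with TRI reagent, depleted of ribosomal RNA and made into stranded total RNA libraries. The submitters' processing notes name bcl2fastq 1.8.4, TopHat2 2.0.13, featureCounts 1.5.0-p1, DESeq2 1.6.1 and mm10. The strand setting of the counting is not given in the sources used here. The authors deposited whole-number counts per gene, not normalized and not pooled, and tables of their comparisons. Per the file headers, these tables hold the mean normalized count (a signal), the log2 fold change with its standard error, the test statistic (a score), and p-values and adjusted p-values. They list genes under an adjusted p of 0.05 only and were used for description.

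Counts were tested in edgeR 4.0.16 (R 4.3.3) with the quasi-likelihood F test after TMM scaling and filterByExpr (minimum count 10), over all 12 libraries with 1 mean per group, two-sided. It left 13238 genes (common dispersion 0.0835). Adjustment was by Benjamini and Hochberg over these genes, with calls at an FDR of 0.05. The SE is the size of the log2 fold change over the root of F, and 95% intervals use the normal distribution. CPM values are TMM-scaled. With no molecular identifiers, counts carry counting error of reads, not of molecules. The test was checked on simulated counts. The simulation used the common dispersion for every gene and no recipient effect, so it does not check the fit with the recipient block.

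Recipients gave both sorts, per the design text, and same-numbered sorts deviated together (correlation 0.509, 0.211 and 0.572 in Het and 0.470, 0.448 and 0.254 in KO recipients). The recipient was therefore fitted as a block in an alternative, and its value stands beside the results it changes. Other alternatives were DESeq2 1.42.0, limma-voom (limma 3.58.1), DESeq2 size factors, no filter, only the groups compared, features above 5% of a library left out, and each replicate left out. Leaving out recipients from the blocked fit was chosen after seeing the data.

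The members and lists were chosen with earlier results of these data known. Text names the 7 members, list genes called without the block, with the block the 4 highest and 4 lowest called list genes that average 5 CPM or more in the group where they are higher, the 5 genes most correlated with Gstt1 and with Gstm5, and genes starting within 50 kb of them. Shared sequence was counted in 50-base words of GENCODE M21 transcripts. Gene symbols were found for 42462 of 43626 genes.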

Additional observations from a re-analysis of the deposited data

How the results depend on the processing

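Counts of genes called moved with the model. In KO recipients 17 genes were called, against 2349 with the recipient block, 390 by DESeq2, 201 with no filter, 10 with only the 2 groups and 4 by limma-voom. Leaving out a library gave 5 to 1760 (the highest without KO GFP-positive replicate 1) and leaving out recipient 1, 2 or 3 from the block 3930, 652 and 319. Of the pathway genes, 9 were called there with the block, 1 by DESeq2 and 1 with no filter, 0 to 4 without a library and 16, 3 and 2 in the block without recipient 1, 2 or 3. Members called were 3 with the block, 1 by DESeq2, 0 to 1 without a library and 0 to 3 in the block without a recipient. In Het recipients 457 genes became 2944 with the block, 1189 by DESeq2, 897 with no filter, 88 to 360 without a library and 1618, 1070 and 1817 in the block without recipient 1, 2 or 3. Pathway calls became 9 with the block, 4 with no filter, 1 to 2 without a library and 7, 5 and 7 in the block without recipient 1, 2 or 3.

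Het against KO GFP-positive cells gave 14 genes, against 95 by DESeq2, 72 with no filter, 2 with only the 2 groups and 3 to 7 without a library. Het against KO GFP-negative cells gave 0 (695 at an unadjusted p under 0.05), against 45 by DESeq2, 26 with no filter, 7 with only the 2 groups, 2 by limma-voom and 0 to 7 without a library. Replicate numbers do not pair the genotypes (correlation -0.0716, 0.148 and -0.0946 in GFP-positive, -0.221, -0.152 and -0.131 in GFP-negative cells), and a replicate block on them gave 2 and 5 genes. Among the members tested in KO recipients, the recipient block changed no call other than those of Gstm1, Gstm5 and Gstp1. The block on numbers put Gsto1 at -0.10 in GFP-positive cells.

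Directions turned for small or uneven differences. Without a library, Gsto1 in KO recipients ran from -0.19 to 0.49, and was -0.17, -0.11 and 0.55 in the block without recipient 1, 2 or 3. Between GFP-positive cells, Gstm1 ran from -0.41 to 1.82, Gstm5 from -0.80 to 0.11, Gstp1 from -0.15 to 0.62 and Gsto1 from -0.69 to 0.40 on the log2 scale. Between GFP-negative cells, Gstm1 ran from -1.14 to 2.33 and Gstp1 from -0.34 to 0.054. The cause of these changes was not tested. In Het recipients Gstm1 ran from 0.24 to 4.41, both ends set by recipient 3. Without a library Gstt1 stayed between -2.96 and -2.20 and Gstm5 between -2.86 and -1.97 in Het recipients, and in KO recipients between -1.03 and -0.63, and between -1.99 and -1.61. Low counts limit Gstm1, Gstm5 and Gstk1, above all in the shallowest library, KO GFP-positive replicate 2. Gstt1 had 9 counts and Gstp1 10 counts in that library, and Gstt1 had 2 counts in Het GFP-positive replicate 2.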
